A study of Mus musculus with 16 samples.

Results

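Glycolysis turns glucose into pyruvate and lactate, and its enzymes are encoded by families of isoform genes that differ between tissues. Hypoxia-inducible factor (HIF) is a transcription factor whose alpha subunit is hydroxylated in oxygen by the EGLN enzymes and then degraded; when it is stable it raises many glycolytic genes along with genes of vessel growth and mitophagy. In the testis, glycolysis and its lactate serve germ cells, and germ cells at later stages switch to isoforms of their own. The genes described here were 33 symbols chosen by name: glucose and lactate transporters, glycolytic enzymes, enzymes that set the fate of pyruvate, and members and targets of the HIF pathway. Of these, 32 had a row among the 16383 genes of the table, and all 32 were among the 12907 genes tested. Car9 was not analysed here.

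The data were levels of polyA RNA in undifferentiated spermatogonia, the mitotic germ cells that include the spermatogonial stem cells, isolated by cell sorting from adult animals at day 10 after busulfan. The 4 groups of 4 libraries were Spry4 germline knockout given the MEK inhibitor PD0325901 (KO_PD), Spry4 germline knockout given vehicle (KO_vehicle), wild type given PD0325901 (WT_PD) and wild type given vehicle (WT_vehicle). Every mouse, wild type included, had received busulfan at 10 mg/kg, an alkylating drug that depletes dividing germ cells. From day 3 the animals were injected daily for 7 days, either with PD0325901 at 2.5 mg/kg or with 10% DMSO in buffer. The library names mark wild type as Spry4ff and knockout as GCRT_Spry4KO, and GCRT stands for nothing that the labels spell out. What GCRT names and the loss of Spry4 cannot be told apart. The sources used here do not give the sort markers, the deleted part of Spry4 or whether each library came from 1 mouse, so the p-values cover only the spread among libraries, which may be technical.

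Spry4 itself was lower in the knockout groups, at 8.23 to 19.3 FPKM in KO_PD, 7.28 to 14.7 FPKM in KO_vehicle, 15.9 to 27.4 FPKM in WT_PD and 19.9 to 23.8 FPKM in WT_vehicle, with 1 KO_PD library (replicate 4) inside the WT_PD range. FPKM counts fragments per kilobase of gene, divided by a number set for each library. The germ cell genes Ddx4 (68.8 to 144 FPKM) and Zbtb16 (85.6 to 125 FPKM) were abundant in every library. Acta2, the smooth muscle actin of contractile cells such as peritubular myoid cells, spanned 13.9-fold. It was 1803, 1345, 1800 and 3937 FPKM in KO_PD 1 to 4 and 1751, 988, 538 and 2910 FPKM in KO_vehicle 1 to 4. It was 571, 367, 5095 and 3035 FPKM in WT_PD 1 to 4 and 945, 2890, 3154 and 1986 FPKM in WT_vehicle 1 to 4. The ranges of all 4 groups overlapped, and the smallest exact permutation p of the 4 pairwise group comparisons of Acta2 was 0.314 (two-sided; the smallest possible is 0.0286). KO_vehicle 3 carried far more spermatid RNA than the rest, its Prm1 being 739 FPKM against a median of 9.50 FPKM over the 16 libraries. The divisors recovered from low FPKM values lay between 23370000 and 36630000 reads, so 1 FPKM stood for 23.4 to 36.6 reads per kilobase of exon.

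Glycolytic transcripts of the sorted cells were led by Aldoa (aldolase A, which splits fructose bisphosphate), with a median of 118 FPKM over the 16 libraries. Pkm (pyruvate kinase) followed at 94.5 FPKM, Gpi1 (glucose phosphate isomerase) at 88.3 FPKM and Gapdh (glyceraldehyde phosphate dehydrogenase) at 61.1 FPKM. This order of medians did not hold in every library. In WT_PD 1, Aldoa (84.49 FPKM) lay below Pkm (97.35 FPKM) and Gpi1 (85.08 FPKM). Slc16a3, the lactate exporter MCT4, had the lowest median at 1.52 FPKM, next to Eno2, the neuronal enolase, at 1.80 FPKM. FPKM is per length, so these levels can be set side by side. Several rest on sequence that other genes share. Of the 50-base stretches in its transcripts, 53.9% for Pgk1, 36.2% for Pgam1, 26.0% for Eno1, 25.8% for Pkm, 24.7% for Gapdh, 21% for Ldhb and 16.5% for Bnip3 also occurred in other annotated genes. The levels of these 7 genes are uncertain for that reason. The fewest reads behind a member's value in any library were 81 for Eno2, 97 for Ankrd37 and 123 for Slc16a3.

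The members differed greatly in how far they varied. Pfkl, the liver-type phosphofructokinase, spanned 5.13-fold over the 16 libraries, Slc16a3 4.86-fold, Tpi1 (triose phosphate isomerase) 4.07-fold, Eno2 3.50-fold, Ldha 3.46-fold and Ldhb 3.42-fold. Ldha and Ldhb encode the lactate dehydrogenase subunits that interconvert pyruvate and lactate. At the other end, Pkm spanned 1.21-fold, Pgam1 (phosphoglycerate mutase) 1.23-fold and Gpi1 1.32-fold. The highest library was WT_PD 3 for 12 of the 32 members. The matching share over all genes was not counted, and WT_PD 3 also had the most Acta2 and the largest summed FPKM.

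**Figure D1:**
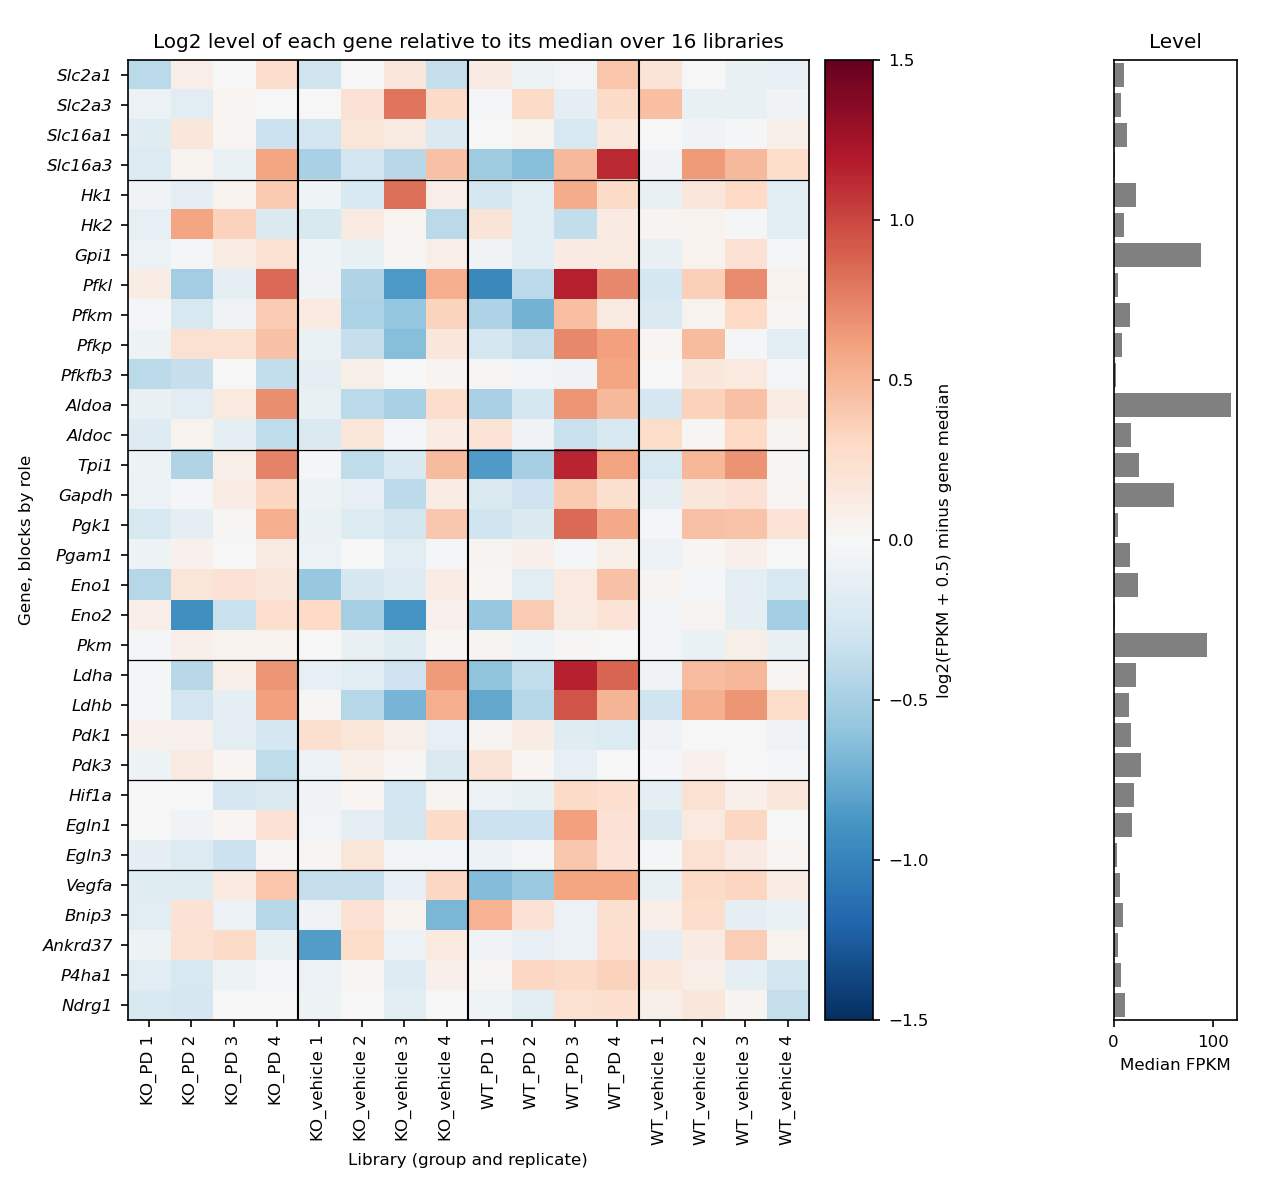
Left, log2(FPKM + 0.5) of each of the 32 genes in each of the 16 libraries, minus that gene's median over the libraries; columns are libraries by group and replicate, and horizontal lines separate transporters, upper glycolysis, lower glycolysis, pyruvate fate, HIF pathway and HIF targets. Right, each gene's median FPKM. WT_PD 3, WT_PD 4 and KO_PD 4 are red, and WT_PD 1 and WT_PD 2 blue, for Pfkl, Aldoa, Tpi1, Ldha and Ldhb, while Pkm and Pgam1 are pale throughout.

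The spread of these genes was set against Acta2. For each gene a slope was fitted with limma: the change in log2(FPKM + 0.5) per doubling of Acta2, with 1 mean per group, so that differences between the groups did not enter. Adjusted p-values below are Benjamini-Hochberg values over all genes in this fit, with 0.05 as the threshold. Of the 32 members, 16 (50%) were higher where Acta2 was higher, beside 32.1% of all tested genes. Another 4 members (12.5%) were lower, beside 21.7% of all tested genes. In either direction 53.8% of all genes passed, and 12 members did not. The median slope was 0.09 over the members and 0.01 over all genes. With each library centred on its median, 12 members were higher and 7 lower, and the split over all genes moved to 3067 higher and 5136 lower, against 4137 higher and 2805 lower without centring. The summed FPKM of the libraries also varied, between 206108 in WT_PD 1 and 276968 in WT_PD 3.

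Pfkl (ENSMUSG00000020277, GRCm38 chromosome 10, 77986947 to 78010083, minus strand) had the steepest slope. It was 5.21, 3.20, 4.34 and 9.07 FPKM in KO_PD 1 to 4, 4.61, 3.38, 2.41 and 7.21 FPKM in KO_vehicle 1 to 4, 2.22, 3.50, 11.4 and 8.25 FPKM in WT_PD 1 to 4, and 3.92, 6.30, 8.15 and 5.003 FPKM in WT_vehicle 1 to 4. The libraries with the most Acta2, WT_PD 3 and KO_PD 4, were also the highest for Pfkl, and all 4 groups overlapped. Its slope was 0.54 (SE 0.056, adjusted p = 2.04e-06), a factor of 1.45 per doubling of Acta2, and 95.8% of tested genes had a lower slope. The other phosphofructokinase genes had smaller slopes, 0.32 (SE 0.027) for the muscle type Pfkm and 0.28 (SE 0.044) for the platelet type Pfkp. Aldoa, at 84.0 to 192 FPKM, had a slope of 0.33 (SE 0.036, adjusted p = 3.25e-06), and Gpi1 one of 0.08 (SE 0.024, adjusted p = 0.00807), which did not pass once libraries were centred. Of the 9 genes of upper glycolysis 5 were higher and 1, Aldoc, was lower. Hk1, Hk2 and Pfkfb3 did not pass.

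In lower glycolysis Tpi1 (ENSMUSG00000023456, chromosome 6, 124810586 to 124814296, minus strand) led. It was 24.4, 18.7, 27.3 and 43.3 FPKM in KO_PD 1 to 4, 25.4, 19.6, 21.8 and 35.9 FPKM in KO_vehicle 1 to 4, 14.0, 18.0, 57.0 and 39.2 FPKM in WT_PD 1 to 4, and 21.6, 36.3, 41.1 and 25.9 FPKM in WT_vehicle 1 to 4. Within WT_PD alone the level spanned 14.0 to 57.0 FPKM, wider than the range of any other group. Its slope was 0.47 (SE 0.054, adjusted p = 5.55e-06). Pgk1, the X-linked phosphoglycerate kinase, had a slope of 0.30 (SE 0.034), and Gapdh had a shallow but tight one, 0.19 (SE 0.018, adjusted p = 5.58e-07). Pgam1, Eno1, Eno2 and Pkm did not pass, with slopes between 0.02 and 0.17. Of the 7 genes of lower glycolysis, 3 were thus higher with Acta2 and none lower. Differences between slopes were not tested.

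Both lactate dehydrogenase genes rose with Acta2. Ldhb (ENSMUSG00000030246, chromosome 6, 142490249 to 142507957, minus strand) was 15.3, 12.6, 14.0 and 24.1 FPKM in KO_PD 1 to 4, 15.7, 11.4, 9.37 and 22.8 FPKM in KO_vehicle 1 to 4, 8.86, 11.4, 30.3 and 22.3 FPKM in WT_PD 1 to 4, and 12.5, 22.7, 24.7 and 18.9 FPKM in WT_vehicle 1 to 4. Its slope of 0.46 (SE 0.038) had the smallest adjusted p of any member, 1.76e-07. Ldha (ENSMUSG00000063229, chromosome 7, 46841475 to 46855627) was 21.8, 16.5, 23.6 and 35.6 FPKM in KO_PD 1 to 4, 20.3, 19.8, 17.8 and 34.8 FPKM in KO_vehicle 1 to 4, 14.5, 17.1, 50.01 and 41.2 FPKM in WT_PD 1 to 4, and 21.5, 30.9, 31.6 and 22.7 FPKM in WT_vehicle 1 to 4, with a slope of 0.44 (SE 0.048). The lactate exporter gene Slc16a3 had a slope of 0.38 (SE 0.067, adjusted p = 0.000316) at levels of 0.803 FPKM in WT_PD 2 to 3.90 FPKM in WT_PD 4. The log2 scale with 0.5 added understates changes at such levels. Slc2a1, the widespread glucose transporter GLUT1, lay between 7.74 FPKM in KO_PD 1 and 14.0 FPKM in WT_PD 4, with a slope of -0.02 (SE 0.054), and Slc16a3 was the 1 transporter of 4 that passed.

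The 3 HIF pathway genes among the members all passed, and all were higher with Acta2. Egln1 (ENSMUSG00000031987, chromosome 8), the main oxygen-dependent hydroxylase of HIF-alpha, ranged from 14.6 FPKM in WT_PD 1 to 28.5 FPKM in WT_PD 3, with a slope of 0.23 (SE 0.022, adjusted p = 6.21e-07). Hif1a had a slope of 0.10 (SE 0.030, adjusted p = 0.0104) and Egln3, a hydroxylase that is itself a HIF target, 0.09 (SE 0.030, adjusted p = 0.0173). Leaving out WT_PD 1 or WT_PD 3 ended the call of Egln3 (highest adjusted p = 0.122), and centring the libraries ended those of Hif1a and Egln3. Of the 5 HIF targets tested, 2 were higher, 1 lower and 2 not called. Vegfa (ENSMUSG00000023951, chromosome 17), the vascular growth factor, was 5.31, 5.31, 6.79 and 8.32 FPKM in KO_PD 1 to 4, 4.68, 4.65, 5.58 and 7.68 FPKM in KO_vehicle 1 to 4, 3.71, 3.98, 9.48 and 9.44 FPKM in WT_PD 1 to 4, and 5.63, 7.53, 7.73 and 6.62 FPKM in WT_vehicle 1 to 4. Its slope was 0.31 (SE 0.049, adjusted p = 0.000108). Ndrg1, a stress-response gene, passed narrowly at 0.09 (adjusted p = 0.0367), and leaving out any 1 of 10 libraries ended that call, as did centring. P4ha1, a collagen prolyl hydroxylase subunit, and Ankrd37, an ankyrin repeat gene, did not pass.

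Bnip3 (ENSMUSG00000078566, chromosome 7, 138890836 to 138909519, minus strand), a HIF target that drives mitophagy, ran the other way. It was 8.17, 10.9, 8.69 and 6.74 FPKM in KO_PD 1 to 4, 8.89, 10.8, 9.68 and 5.59 FPKM in KO_vehicle 1 to 4, 13.6, 10.8, 8.68 and 11.0 FPKM in WT_PD 1 to 4, and 9.99, 11.2, 8.39 and 8.60 FPKM in WT_vehicle 1 to 4. The lowest values were in KO_vehicle 4 and KO_PD 4 and the highest in WT_PD 1. Its slope was -0.15 (SE 0.052, adjusted p = 0.0264), and the call ended without KO_PD 4, KO_vehicle 4, WT_PD 1 or WT_PD 3 (highest adjusted p = 0.0881). The other 3 members that were lower with Acta2 were Aldoc, the brain-type aldolase (-0.09, adjusted p = 0.0473), and the pyruvate dehydrogenase kinases Pdk1 (-0.08, adjusted p = 0.0306) and Pdk3 (-0.08, adjusted p = 0.0389), which hold pyruvate back from the mitochondrial citrate cycle. Leaving out 1 library ended the call of Aldoc for 12 libraries, of Pdk1 for 6 (KO_PD 4, KO_vehicle 4 and all 4 of WT_PD) and of Pdk3 for 6 (KO_PD 2, KO_PD 4, KO_vehicle 3, KO_vehicle 4, WT_PD 1 and WT_PD 3). Hk2, the inducible hexokinase (-0.11, SE 0.055), the neuronal-type glucose transporter Slc2a3 (-0.10, SE 0.051) and the lactate carrier Slc16a1 (-0.09, SE 0.037) also had slopes below 0 and did not pass, though all 3 did with centred libraries (-0.17, -0.17 and -0.15). With the library-number set as a term (440 to 447 and 448 to 455, the numbers that open the library names), none of Bnip3, Aldoc, Pdk1 and Pdk3 passed and Slc2a3 did (-0.17). Of the 16 higher members, 14 passed there, and Ndrg1 and Gpi1 did not.

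**Figure D2:**
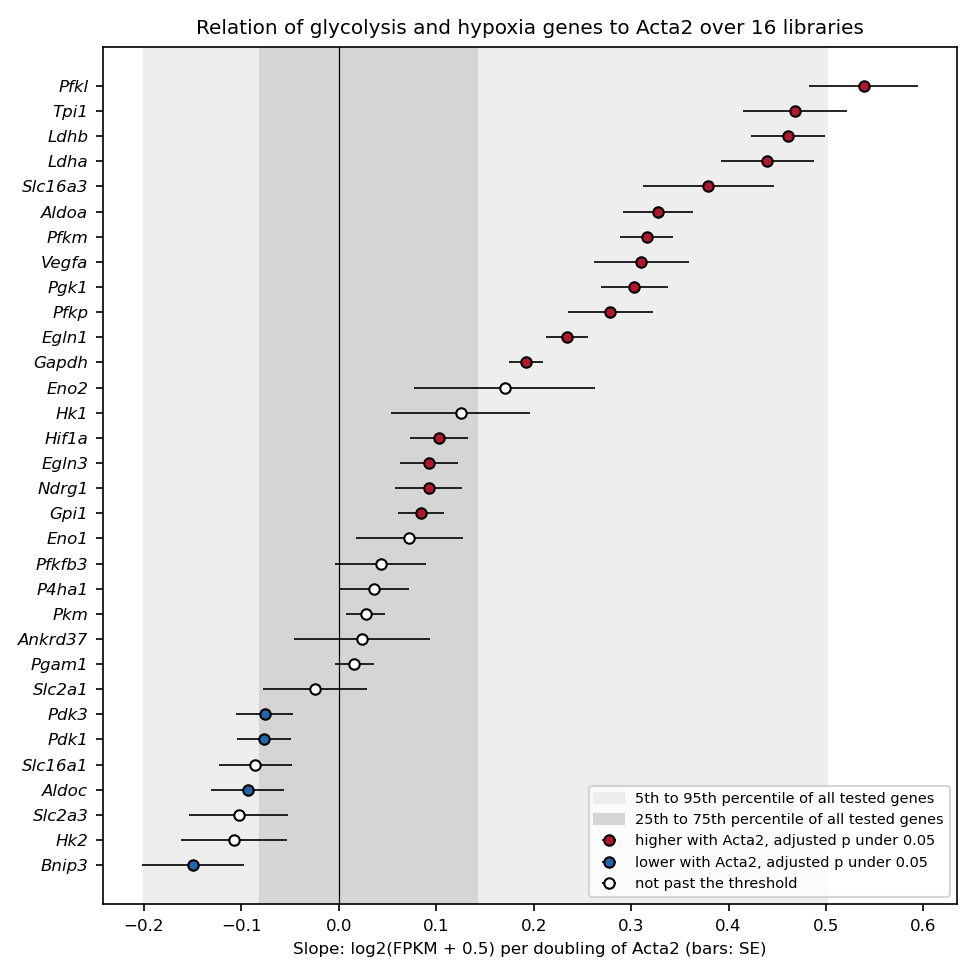
Slope of each of the 32 genes on Acta2 (change in log2(FPKM + 0.5) per doubling of Acta2, x axis), with bars for 1 SE; red, blue and open points are genes higher, lower and not past an adjusted p of 0.05, and grey bands give the middle of the slopes of all tested genes. Pfkl alone lies beyond the upper edge of the light band (0.50), and no gene lies below its lower edge (-0.20).

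Over the 16 libraries, the members with the highest Pearson's r with Acta2 were Pfkm, Gapdh, Egln1 and Ldhb. Pfkm had Pearson's r 0.962 and Spearman's rho 0.929, Gapdh r 0.953 and rho 0.965, Egln1 r 0.940 and rho 0.968, and Ldhb r 0.937 and rho 0.965 (permutation p = 1e-05 for each, the smallest possible, adjusted p = 0.000105 for r and 0.000128 for rho over 12906 genes). Without WT_PD 2 and KO_vehicle 3, the libraries farthest from the median of Acta2, these r were 0.936, 0.941, 0.947 and 0.976. Over the members, 14 of 32 (43.8%) had a positive and 3 (9.38%) a negative r past the adjusted threshold, beside 30.6% and 21.7% of all genes. Library numbers split the libraries into sets of 8 whose Acta2 medians were 1170 and 2970 FPKM. The 16 members with a positive slope call had r between 0.249 and 0.968 within the lower-numbered set and between 0.526 and 0.981 within the higher-numbered set. For Bnip3, Aldoc, Pdk1 and Pdk3 it was between -0.46 and -0.02 in the lower-numbered set and between -0.75 and -0.30 in the higher-numbered set. These members were called over the same 16 libraries, so their signs within the sets are not a separate check. Among members not called, some changed sign between the sets, such as Pgam1 (-0.387 and 0.737). Others did not, such as Slc16a1 (-0.418 and -0.647). Hk1, the constitutive hexokinase, reached r 0.908 only without WT_PD 2 and KO_vehicle 3, against 0.366 with them. In KO_vehicle 3, the library rich in spermatid transcripts, it stood at 40.0 FPKM, beside a range of 18.5 to 33.1 FPKM elsewhere.

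**Figure D3:**
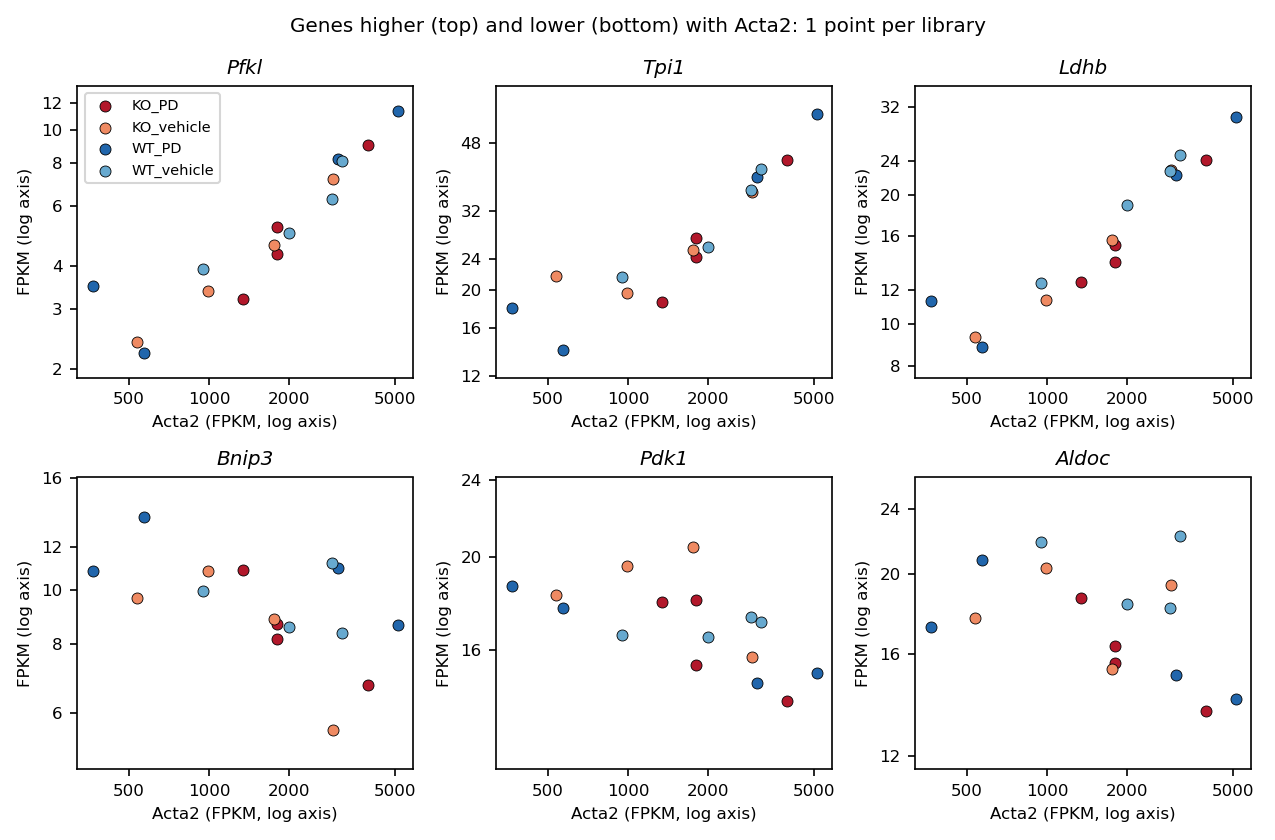
FPKM of 6 genes (y axis, log scale) against Acta2 (x axis, FPKM, log scale), 1 point per library, coloured by group. Pfkl, Tpi1 and Ldhb climb with Acta2 in all 4 groups, to 11.4, 57.0 and 30.3 FPKM in WT_PD 3, whereas Bnip3, Pdk1 and Aldoc slope downward with a wide scatter.

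Genes of contractile cells moved with this axis as a block. All 10 listed contractile genes tested beside Acta2 were higher with it, with slopes of 0.79 for Actg2 up to 1.22 for Cnn1, and their summed level with Acta2 spanned 3520 to 10200 FPKM in KO_PD, 1450 to 7460 FPKM in KO_vehicle, 1230 to 12500 FPKM in WT_PD and 2620 to 8130 FPKM in WT_vehicle. Lhcgr, the luteinizing hormone receptor of Leydig cells, also passed at 0.87, and it was the 1 of 6 listed Leydig genes that was tested. Germ cell genes were lower, 3 of 4 passing (Ddx4 -0.25, Dazl -0.24, Mael -0.16), as were 4 of 9 genes of undifferentiated spermatogonia (Cdh1, Nanos3, Sall4 and Zbtb16). Of 6 endothelial genes tested, none passed (Flt1 had the smallest adjusted p, 0.0573), and the sum of these 6 was 17.9 FPKM in KO_vehicle 3 and between 6.74 and 11.3 FPKM in the other 15 libraries. Of 3 Sertoli genes tested, Gata4 was higher (0.61) and Wt1 lower (-0.20); of 2 macrophage genes Cd14 was higher (0.41), while Adgre1, C1qa and C1qb were listed at 0 in some libraries; of 5 spermatid genes Spaca1 was lower (-0.24). The part of any of these cell types in the slopes of the glycolytic genes was not tested. In RNA from a sorted population, fewer cells of a type and less RNA per cell cannot be told apart.

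Other genes of the same pathways were taken from lists that exclude the members. Of 25 other tested genes of glucose and pyruvate metabolism, 13 were higher with Acta2 and 2 lower (Pfkfb1 and Pgd), with a median slope of 0.09. The steepest were Slc2a4, the insulin-responsive glucose transporter (0.75, at 7.02 to 51.2 FPKM), the pyruvate dehydrogenase kinases Pdk4 (0.62) and Pdk2 (0.51), and the monocarboxylate carrier Slc16a7 (0.56). Pdk2 and Pdk4 thus passed in the direction opposite to Pdk1 and Pdk3. Of 27 other HIF targets tested, 15 were higher and 3 lower, with a median of 0.13. The collagen crosslinker Lox (0.69), the hormone Stc2 (0.59), the peptide Adm (0.43) and glycogen synthase Gys1 (0.43) were among the higher, and the 3 lower were Hmox1 (-0.17), Ak4 (-0.14) and Bnip3l (-0.07), a mitophagy receptor related to Bnip3. Of 10 further genes of the HIF machinery, 4 were higher, led by Epas1, another HIF alpha subunit (0.47, at 43.2 to 194 FPKM), and 3 lower (Arnt2, Crebbp and Ep300). These lists, like the members, stood beside 32.1% higher and 21.7% lower over all genes.

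KO_vehicle 3 stood apart for several isoforms of later germ cells. Gapdhs, Pgk2 and Ldhc, the sperm-type counterparts of Gapdh, Pgk1 and Ldha or Ldhb, were highest in KO_vehicle 3, at 131, 44.3 and 51.9 FPKM, beside medians of 1.66, 0.761 and 3.78 FPKM over the 16 libraries. Pgam2, Aldoart2, Aldoart1 and Slc2a5, listed with them, were highest there too, at 54.5, 17.7, 4.66 and 2.93 FPKM. Their medians were 2.43, 0.446, 0.224 and 0.648 FPKM. Pdha2, a subunit of pyruvate dehydrogenase, was 9.58 FPKM there and 3.45 to 6.15 FPKM elsewhere, and Eno4 was 3.93 FPKM there and 2.28 to 3.81 FPKM elsewhere. That library also held the highest spermatid sum, 2580 FPKM. Gapdhs, Pgk2 and Ldhc did not pass the slope test (adjusted p = 0.142, 0.111 and 0.201). Of the 6 listed isoforms of later germ cells tested apart from the member Hk1, 2 were lower with Acta2 (Eno4 and Pdha2). Without KO_vehicle 3, 16 members were higher and 3 lower with Acta2; Hk1 joined the higher ones, while Ndrg1 and Pdk3 left their calls.

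The promoters of members that moved in different directions are printed as the 150 bases before each gene's RefSeq start (GRCm38.p6, written 5′ to 3′ on the gene's strand): Ldhb and Pgk1, which rose with Acta2, Bnip3, which was lower, and Hk2, which did not pass. Capitals mark ACGTG and GCGTG, the forms of the core of the hypoxia response element, on either strand, where they read CACGT and CACGC on the opposite strand. A run CACGTG holds ACGTG on both strands and is also the E-box, which other factors bind. Ldhb lies at chr6:142507958-142508107 (minus), Pgk1 at chrX:106186950-106187099 (plus), Bnip3 at chr7:138909507-138909656 (minus) and Hk2 at chr6:82774455-82774604 (minus). The gene spans given earlier are GENCODE's, and for Bnip3 the span runs past the RefSeq start, so that 13 bases of its window lie within it.
Ldhb: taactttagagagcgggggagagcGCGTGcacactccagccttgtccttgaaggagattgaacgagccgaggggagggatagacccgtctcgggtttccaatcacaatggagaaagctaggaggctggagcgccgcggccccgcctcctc
Pgk1: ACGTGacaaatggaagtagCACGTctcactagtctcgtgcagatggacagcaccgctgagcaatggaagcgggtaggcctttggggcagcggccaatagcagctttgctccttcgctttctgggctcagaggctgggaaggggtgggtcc
Bnip3: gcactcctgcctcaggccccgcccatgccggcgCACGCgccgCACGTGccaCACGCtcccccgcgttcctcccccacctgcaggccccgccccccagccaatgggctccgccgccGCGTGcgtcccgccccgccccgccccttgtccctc
Hk2: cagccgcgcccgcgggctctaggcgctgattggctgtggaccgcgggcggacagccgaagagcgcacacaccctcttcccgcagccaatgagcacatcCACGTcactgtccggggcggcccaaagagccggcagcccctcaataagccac

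ACGTG and GCGTG were counted on either strand of the 250 bases upstream, in any of a gene's RefSeq promoter windows. Members had from 1 window (such as Ldhb) to 4 windows (Pfkm), and more windows give more chances to match. ACGTG was present in 19 of the 30 members with a RefSeq promoter (63.3%), and in 25.8% of 9736 tested genes with one. Slc2a3 and Ndrg1 were without an entry. By slope call, ACGTG was in 9 of the 15 higher members (60.0%), 2 of the 4 lower and 8 of the 11 not called (72.7%). GCGTG was in 20 of 30 members (66.7%), beside 51.4% of tested genes, and in 8 of the 15 higher, all 4 of the lower and 8 of the 11 not called. Members were chosen partly as HIF targets, and a match describes the letters of the window only.

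Between the 4 groups, no member and no other gene passed the threshold. Limma called 0 of 32 members and 0.0% of the 12907 tested genes in each of the 7 comparisons: knockout against wild type under inhibitor, under vehicle and pooled, inhibitor against vehicle in knockout, in wild type and pooled, and the interaction. The comparisons share groups, so their values are not independent. At an unadjusted p under 0.05 there were 605 genes and 3 members for KO_PD against WT_PD, 251 genes and 0 members for KO_vehicle against WT_vehicle, 382 genes and 1 member for KO_PD against KO_vehicle, and 115 genes and 1 member for WT_PD against WT_vehicle. The pooled genotype comparison gave 561 genes and 3 members, the pooled inhibitor comparison 238 and 1, and the interaction 1.71% of genes and 1 member. A p above the threshold does not show that a gene was equal; the median SE of a member's difference between groups of 4 was 0.17 on the log2 scale.

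With inhibitor, the knockout libraries stood below wild type for P4ha1 (ENSMUSG00000019916, chromosome 10, 59323296 to 59373304). Its level was 6.57, 6.21, 7.05 and 7.35 FPKM in KO_PD 1 to 4, against 7.51, 9.36, 9.16 and 9.56 FPKM in WT_PD 1 to 4. The 2 groups did not overlap, which held for 2.28% of all tested genes in this comparison and for no other member. No member was free of overlap for KO_vehicle against WT_vehicle (1.46% of all genes were), KO_PD against KO_vehicle (1.7%) or WT_PD against WT_vehicle (0.659%). The log2 difference was -0.36 (SE 0.11, adjusted p = 0.988). Its vehicle values were 6.98, 7.58, 6.42 and 7.86 FPKM in KO_vehicle 1 to 4 and 8.31, 7.97, 6.72 and 6.06 FPKM in WT_vehicle 1 to 4, which overlapped. P4ha1 was also the member with the smallest p for WT_PD against WT_vehicle (0.28, SE 0.11) and for the interaction (-0.36, SE 0.15), both with an adjusted p of at least 0.999. The interaction is the inhibitor difference in knockout minus that in wild type, and Slc2a3 came next in it (-0.44, SE 0.24, adjusted p = 0.999).

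Pfkfb3, which makes the sugar phosphate that activates phosphofructokinase, was 2.05, 2.16, 2.85 and 2.11 FPKM in KO_PD 1 to 4, 2.58, 3.08, 2.90 and 2.97 FPKM in KO_vehicle 1 to 4, 2.91, 2.77, 2.76 and 4.60 FPKM in WT_PD 1 to 4, and 2.90, 3.31, 3.24 and 2.80 FPKM in WT_vehicle 1 to 4. The 3 lowest values of all were in KO_PD, and KO_PD 3 lay inside the range of the other groups. The log2 difference was -0.41 for KO_PD against WT_PD (SE 0.14, adjusted p = 0.988) and -0.28 for KO_PD against KO_vehicle (SE 0.14, adjusted p = 0.968), and for the interaction it was -0.34 (SE 0.20). Without WT_PD 4, the difference was -0.26 for KO_PD against WT_PD and -0.18 for the interaction. Egln3 was 3.16, 3.04, 2.76 and 3.60 FPKM in KO_PD 1 to 4, against 3.32, 3.51, 4.89 and 4.20 FPKM in WT_PD 1 to 4 (-0.29, SE 0.11, adjusted p = 0.988). Pooled over treatments, the knockout minus wild type differences with the smallest p were -0.24 for Pfkfb3, -0.18 for P4ha1 and -0.17 for Egln3, with adjusted p = 0.998.

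Under vehicle, 29 of the 32 members had a difference below 0 between knockout and wild type, with a median of -0.12, where 52.8% of all genes were below 0 with a median of -0.01. Leaving out 1 library gave 25 to 29 members below 0, and none of the 32 had an unadjusted p under 0.05. The smallest p were for Slc2a3 (0.29, SE 0.17), Slc16a3 (-0.53, SE 0.35) and Hif1a (-0.15, SE 0.12). Slc2a3 was 7.52, 8.87, 13.5 and 9.32 FPKM in KO_vehicle 1 to 4, against 10.5, 6.92, 6.91 and 7.24 FPKM in WT_vehicle 1 to 4, so WT_vehicle 1 lay above 3 of the knockout libraries. Without KO_vehicle 3, the difference was 0.13 for Slc2a3 and -0.08 for Hif1a. Acta2 differed by -0.66 in this comparison (exact permutation p = 0.314, n = 4 each), and by -1.06 (without KO_vehicle 4) to -0.25 (without KO_vehicle 3) with 1 library left out. The count of 29 fell with Acta2 as a term in the model. Eno2, Ndrg1, P4ha1, Tpi1, Egln1, Pfkm, Egln3 and Ldha then lay above 0, by 0.003 (Egln3) to 0.07 (Ldha). All other members that had been below 0 stayed below, such as Slc16a3 (-0.27) and Bnip3 (-0.25). The share of all genes below 0 with the term is not given here, and whether Acta2 accounts for the count was not tested. With inhibitor 22 of 32 members were below 0 with a median of -0.05, beside 53.8% of all genes with a median of -0.01. Without the Acta2 term that count had no stable direction, at 14 members below 0 without WT_PD 4, 15 without WT_PD 3 and 28 without WT_PD 2. With the term, every member but Hk2 (0.27), Ankrd37 (0.07), Pdk1 (0.03) and Pkm (0.03) was below 0. Some were barely so, such as Aldoc (-6e-04) and Gpi1 (-0.005). The share of all genes with the term is again not given here. Acta2 differed by 0.60 between KO_PD and WT_PD (exact permutation p = 0.514, n = 4 each) and by -0.02 without WT_PD 2.

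For the inhibitor, the differences with the smallest p in the knockout were Slc2a3 (-0.38, SE 0.17), at 7.03, 6.71, 7.71 and 7.56 FPKM in KO_PD 1 to 4 against the vehicle values above, then Pfkfb3 and Pfkp (0.43, SE 0.25). The KO_vehicle value farthest from KO_PD was the 13.5 FPKM of KO_vehicle 3, and without that library the Slc2a3 difference was -0.22 and its interaction -0.28. In wild type they were P4ha1, Aldoc (-0.27, SE 0.13) and Eno1 (0.21, SE 0.17, and 0.10 without WT_PD 4). Aldoc was 20.8, 17.3, 14.1 and 15.1 FPKM in WT_PD 1 to 4, against 21.9, 18.2, 22.2 and 18.4 FPKM in WT_vehicle 1 to 4, with WT_PD 1 inside the vehicle range. Pooled over genotypes, Aldoc (-0.22, SE 0.092), Eno1 (0.24, SE 0.12) and Pkm (0.08, SE 0.047) had the smallest p, and none passed (adjusted p = 1 for each).

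**Figure D4:**
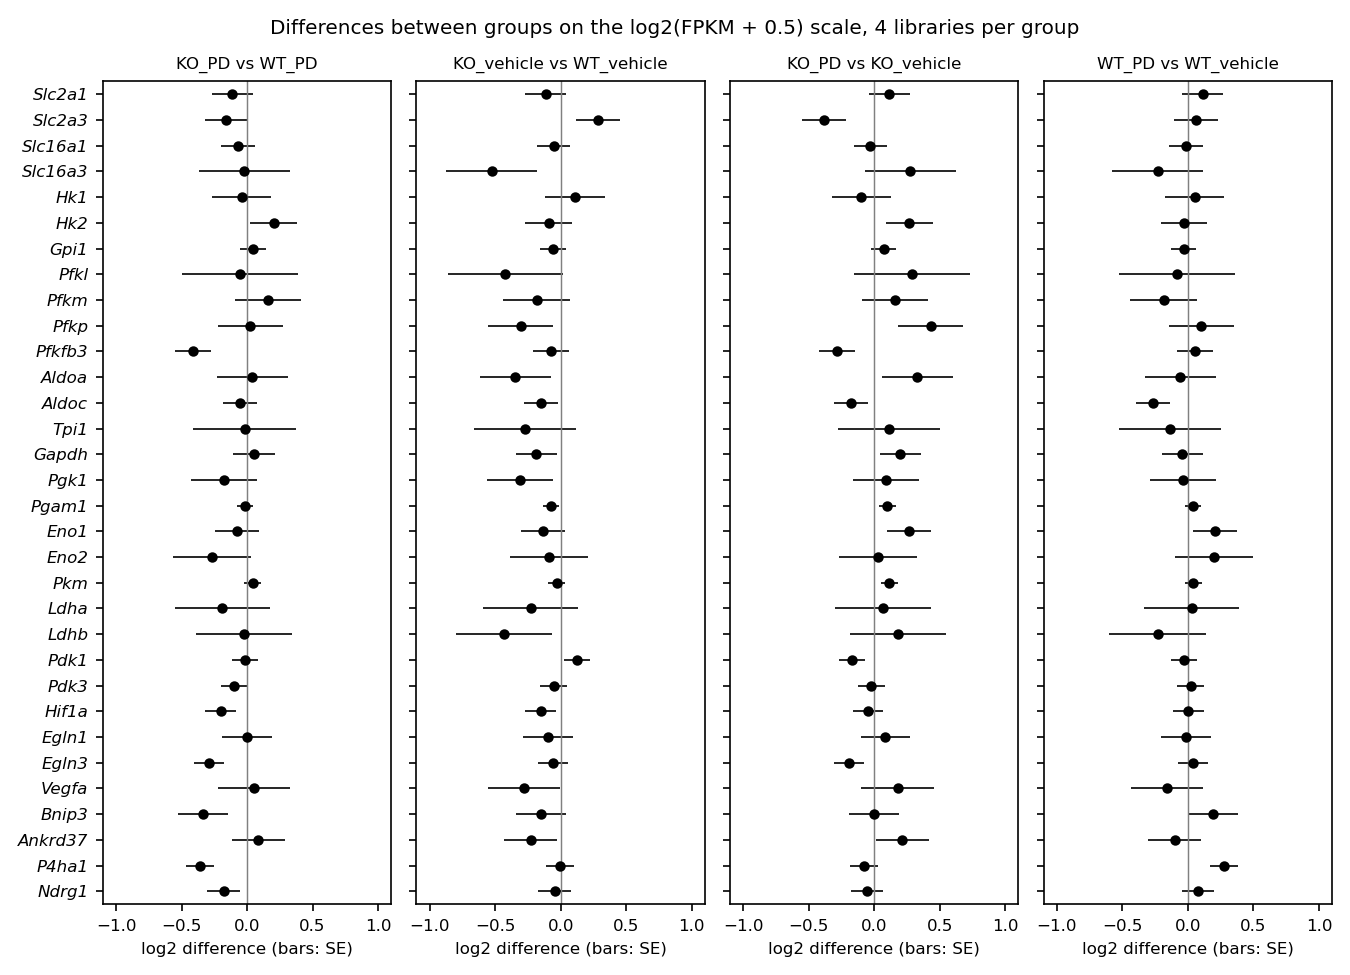
Log2 difference of each gene (x axis, log2(FPKM + 0.5), bars 1 SE, n = 4 libraries per group) in the 4 pairwise group comparisons. Most points lie within 0.5 of 0; for KO_PD against WT_PD, P4ha1 (-0.36), Pfkfb3 (-0.41) and Egln3 (-0.29) stand to the left of 0 by more than 2 SE, and none passed adjustment over all genes.

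Adding Acta2 to the model as a term left 0 members called in every comparison, with Egln3 for KO_PD against WT_PD the nearest (adjusted p = 0.148). The term did move some differences of that comparison. Pgk1 went from -0.18 to -0.36 (adjusted p = 0.154 by limma with the term) and Ldha from -0.19 to -0.45 (adjusted p = 0.171). Hk2 stayed above 0, at 0.20 without the term and 0.27 with it. The other pathway lists had 0 genes called in the 7 comparisons as well.

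Isoform use was compared as shares of summed FPKM. Ldhb made up 34.5% to 45.5% of Ldha and Ldhb together, a narrow range beside the more than 3-fold span of each gene. Aldoc was 6.62% (KO_PD 4) to 19.8% (WT_PD 1) of Aldoa and Aldoc, Hk2 19.8% (WT_PD 3) to 44.8% (KO_PD 2) of both hexokinases, and Slc16a3 5.39% (WT_PD 2) to 20.5% (WT_PD 4) of both lactate carriers. Among the phosphofructokinases Pfkm made up 45.1% to 58.7%, Pfkp 23.0% to 37.8% and Pfkl 10.6% to 23.7%. Slc2a3 was 37.5% to 53.9% of both glucose transporters, Pdk3 55.9% to 65.0% of both kinases and Eno2 2.44% to 12.2% of both enolases. Over 8 ratios and 4 group comparisons, 1 of 32 two-sided exact permutation tests had p under 0.05. This was Pdk3 to Pdk1 in KO_vehicle against WT_vehicle, at a mean log2 ratio of 0.52 in KO_vehicle and 0.69 in WT_vehicle (difference -0.17, exact p = 0.0286, the smallest possible, adjusted p = 0.914 over the 32). Its share was 55.9%, 60.0%, 60.5% and 60.1% in KO_vehicle 1 to 4, against 62.0%, 62.5%, 61.7% and 62.1% in WT_vehicle 1 to 4.

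**Figure D5:**
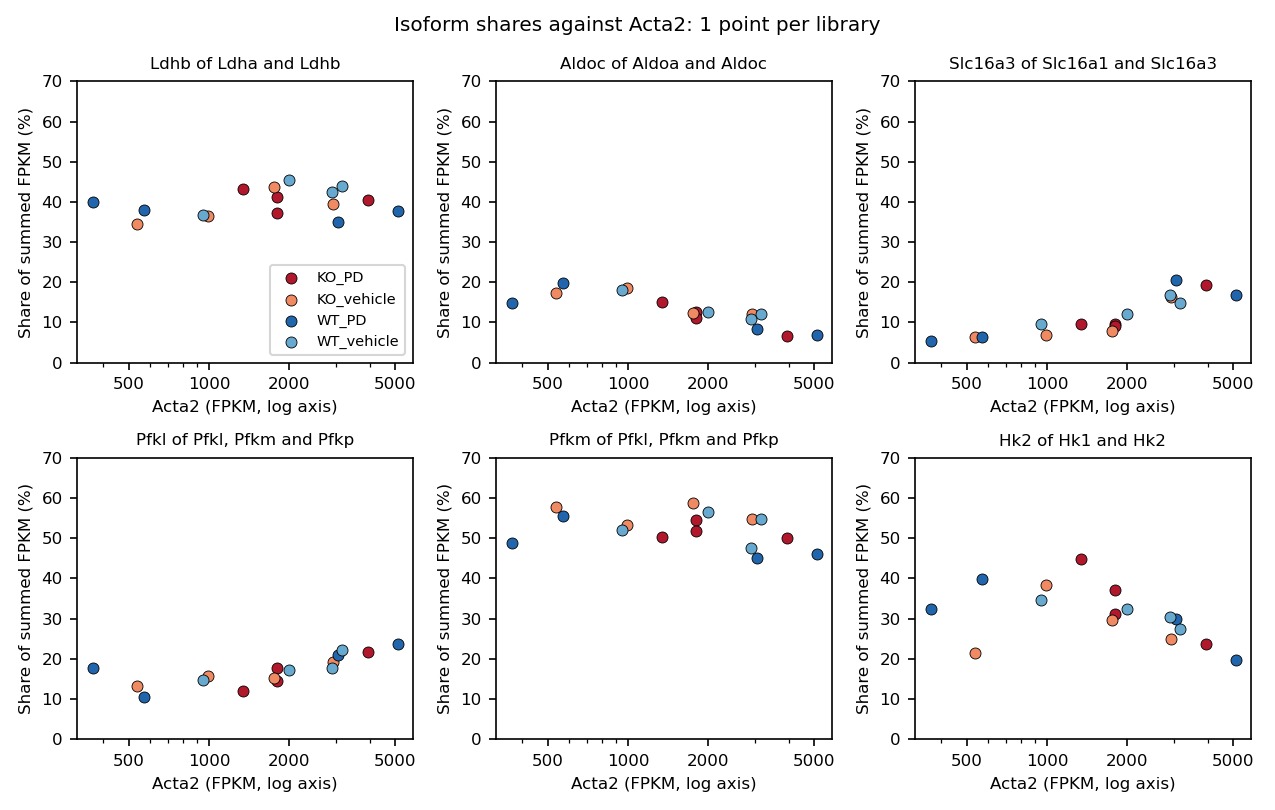
Share of 1 isoform gene in the summed FPKM of its family (y axis, percent) against Acta2 (x axis, FPKM, log scale), 1 point per library, coloured by group. Ldhb stays between 34.5% and 45.5%, Aldoc is lowest (6.62% and 6.99%) in the libraries with the most Acta2, KO_PD 4 and WT_PD 3, and Slc16a3 lies between 5.39% and 20.5%.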

How the data were processed

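Stranded polyA RNA libraries were sequenced, and the deposited table gives each library's FPKM per gene, computed by the authors. The submitters' processing notes list FastQC, STAR 2.7.10a and edgeR 4.0.14, and the builds mm10 and GRCm39; the sources used here do not say which build and gene lengths gave the FPKM, or name any scaling. Of 16383 gene symbols, 15772 (96.3%) matched 1 gene of GENCODE M21 (GRCm38), used for positions and exon lengths. Each library's divisor was recovered as the number that makes low FPKM values whole reads (93.0% to 94.3% within 0.1 reads), so it rests on these lengths. It was not a plain total of reads. In WT_PD 3 the reads in matched genes came to 36320000, above the divisor of 32250000. In WT_PD 1 they came to 24470000, below the divisor of 27950000. Apart from centring the libraries, the bearing of this scaling on the slopes was not tested.

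Genes at 1 FPKM or more in at least 4 libraries were tested (12907; 3476 left out) in R 4.3.3 by limma 3.58.1, fitted to log2(FPKM + 0.5) with 4 group means over 16 libraries, a variance trend and Benjamini-Hochberg adjustment over all genes of a comparison. Slopes on Acta2 used the same model with centred log2 Acta2 as a term. Correlations used 100000 permutations, and ratios and Acta2 two-sided exact permutation tests. Scripts were tested on simulated data.

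The members, lists and markers were chosen with earlier results of these data known. Every member is described, and the text names the 3 members with the smallest p in each group comparison and the 8 highest and 6 lowest slopes; other genes are examples chosen after their values were seen. Replicate numbers are shared by the groups, and the labels do not say that they pair libraries. Alternatives covered the pseudocount, the filter, centring, the variance trend, the replicate block, the library-number set, contractile and spermatid terms, and each library left out.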

Additional observations from a re-analysis of the deposited data

Results flagged for a closer look

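In 6 of 132 groups of 4 libraries, 1 library lay far from the other 3 by Dixon's test at the 95% level, about the 1 in 20 that chance gives. Ldha in KO_vehicle 4 was 34.8 FPKM, above 17.8 to 20.3 FPKM in the other 3, and Slc16a3 in the same library was 2.25 FPKM, above 0.939 to 1.16 FPKM. That library had the highest Acta2 of its group. Pfkfb3 was high in KO_PD 3 (2.85 FPKM, the others 2.05 to 2.16 FPKM) and in WT_PD 4 (4.60 FPKM, the others 2.76 to 2.91 FPKM), so its KO_PD minus WT_PD difference holds a distant library on each side. Eno1 was low in KO_PD 1 (18.6 FPKM, the others 28.3 to 29.4 FPKM). Slc2a3 was high in WT_vehicle 1 (10.5 FPKM, the others 6.91 to 7.24 FPKM).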

How the results depend on the processing

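Over all alternatives 0 members were called in any group comparison, and the most genes called was 1, for pooled knockout against wild type with Acta2 as a term. The slope on Acta2 depended more on the processing among the lower genes. Genes called lower numbered 1779 with a filter of 5 FPKM and 5136 with libraries centred, and members called lower 7 with centring, 1 with the library-number set as a term and 1 with the replicate block (14 members higher). The block had little basis, since same-numbered libraries correlated between -0.53 and 0.73 (median -0.05) and 5 of 16 were closest to their own number; it changed no call in the group comparisons. Leaving out 1 library gave 0 to 5 members called lower (0 without KO_PD 4, WT_PD 1 or WT_PD 3, 1 without KO_vehicle 4 and 2 without KO_PD 2) and 14 to 16 called higher. Tests of isoform ratios with p under 0.05 numbered 0 to 2. The Acta2 difference ran from -0.0216 to 1.24 for KO_PD against WT_PD and from -1.24 to 0.0233 for WT_PD against WT_vehicle with 1 library left out, and both turned sign without WT_PD 2; neither passed. Of 940 alternatives for single named genes, 37 ended and 14 gained a call, and none turned a direction that had been called; Aldoc lost its slope call in 18 of 28, Pdk1 in 9 and Bnip3 in 6. The causes were not tested. Leaving out WT_vehicle 4 and WT_PD 4, whose columns carry more decimals, was added after seeing the data and gave 16 members higher and 4 lower. Low reads limit Eno2, Ankrd37 and Slc16a3, and the reads recovered from the divisors cover counting error only.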
